A study of Mus musculus with 8 samples.

Results

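The expression of 10 genes that mark macrophages or belong to the CSF1 receptor axis was followed in the distal colon: *Csf1*, *Csf1r*, *Cd68*, *Cd14*, *Lyz2*, *Mrc1*, *Cd163*, *C1qa*, *C1qb* and *C1qc*. They were chosen by symbol, and all 10 were among the 15859 genes with deposited counts. RNA was sequenced from 8 male mice on a BALB/c x 129SvEV background, 2 in each of 4 groups: untreated WT mice (WT day 0), untreated *Hsf1* null mice (*Hsf1* null day 0), and WT and *Hsf1* null mice given AOM–DSS (WT day 15 and *Hsf1* null day 15). *Hsf1* encodes heat shock factor 1, a transcription factor of the stress response, and the null allele was carried in every tissue, so that macrophages and all other cells lacked it together. AOM–DSS was an injection of 10 mg/kg azoxymethane, a carcinogen, followed from day 7 by 5 days of 1.5% dextran sulfate sodium (DSS) in the drinking water, which injures the epithelium and inflames the colon. The sample labels give an age of 10 weeks for treated and untreated mice alike, and the design text gives 9.5 weeks. The labels also describe collection directly after DSS, whereas the sample titles give day 15, the name used here.

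Macrophages of the gut wall are renewed largely from blood monocytes and depend on CSF1R, a receptor tyrosine kinase at their surface. CSF1R binds the growth factor CSF1, which stromal, endothelial and other cells make, and IL34. Among the markers, CD68 is a glycoprotein of lysosomes, lysozyme (*Lyz2*) degrades bacterial cell walls, CD14 passes bacterial lipopolysaccharide (LPS) to the TLR4 receptor, and CD206 (*Mrc1*) and CD163 are endocytic receptors of tissue macrophages. C1QA, C1QB and C1QC are the chains of C1q, the recognition molecule of the classical complement pathway, which macrophages make locally.

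Libraries held between 2553348 and 12440257 counts, and replicate 2 of each day 0 group was the smallest. CPM are counts scaled to the TMM-adjusted library size, which corrects for library composition. *Hsf1* itself was at 40.5 and 36.5 CPM (WT) against 14.0 and 11.9 CPM (*Hsf1* null) in untreated mice, and at 50.5 and 45.9 CPM against 13.5 and 9.09 CPM in treated mice, so each library followed its genotype label. Tests were edgeR's quasi-likelihood test over the 14371 genes whose normalized counts averaged above 5. A gene passed the threshold at an adjusted p under 0.05 with a log2 fold change beyond 1 in either direction. The RNA came from whole tissue, so that fewer cells of a type and less RNA per cell cannot be told apart. Comparisons that have a group in common share its mice.

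**Figure D1:**
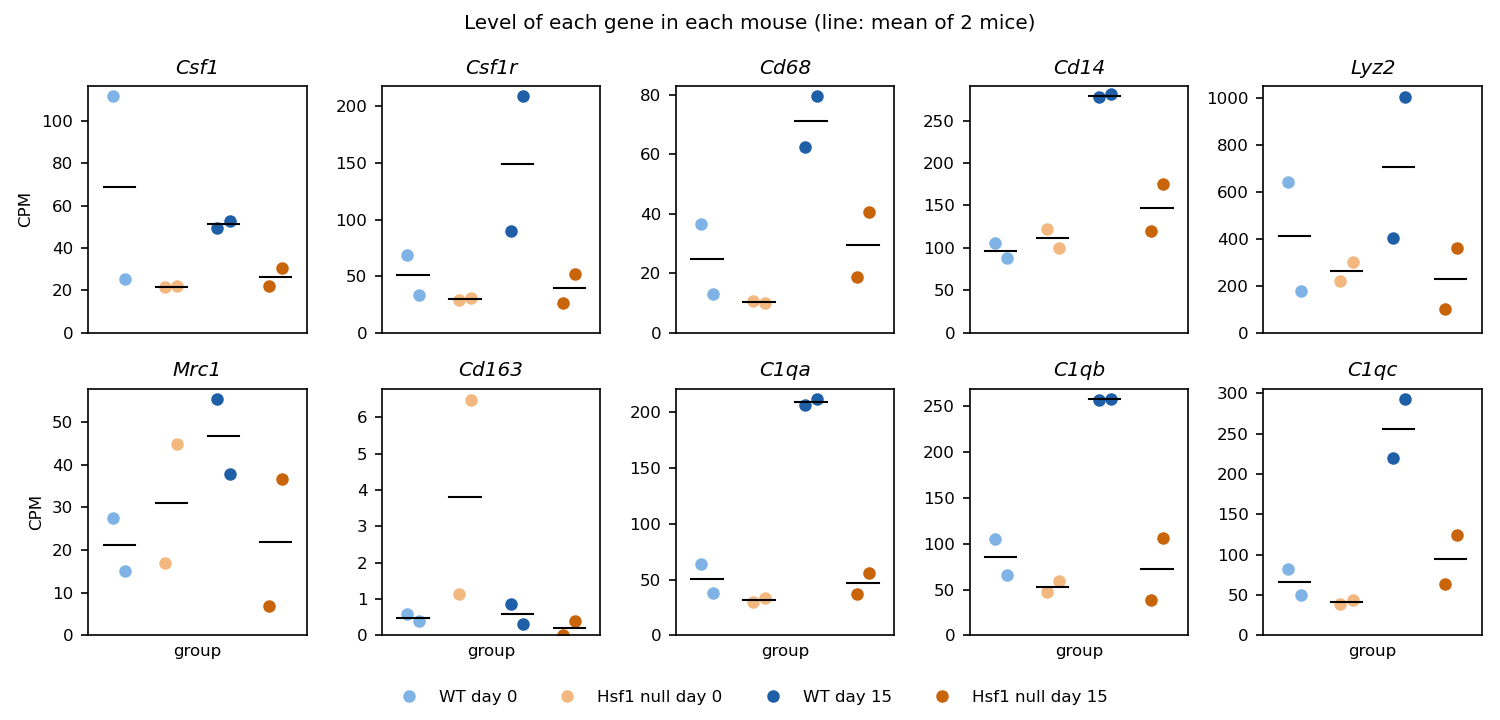
Level of each of the 10 genes in CPM (linear axis from 0, scaled per gene) in each of the 8 mice, by group, with a line at the mean of 2 mice. WT mice at day 15 hold the highest values of *Csf1r*, *Cd68*, *Cd14* and the C1q genes, whereas *Csf1* is highest in replicate 1 of WT day 0 and *Cd163* in replicate 2 of *Hsf1* null day 0.

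At day 15, *C1qa* was 4.47-fold and *C1qb* 3.55-fold higher in WT than in *Hsf1* null mice, and these 2 of the 10 genes passed the threshold. Over all genes tested, 1.25% were called higher in WT mice and 1.91% lower. Both WT mice were above both *Hsf1* null mice for 9 of the 10 genes, all but *Cd163*, against 28.6% of all genes. The median log2 fold change of the 10 genes was 1.45, against 0.035 over all genes tested. The calls are sensitive to the samples that enter the model: edgeR gave 0 calls when only these 4 libraries were fitted (7 of the 10 genes had an unadjusted p under 0.05 in the fit of all 8, against 23.2% of all genes), and DESeq2 gave 4, adding *Csf1r* and *C1qc*. No member was called without either untreated *Hsf1* null mouse, replicate 2 of WT day 15 or replicate 1 of *Hsf1* null day 15, 1 was called without either untreated WT mouse (*C1qa*), and 6 without replicate 2 of *Hsf1* null day 15.

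In WT mice, *C1qa*, *C1qb*, *C1qc* and *Cd14* rose from day 0 to day 15. These 4 of 10 compare with 3.47% of all genes called higher and 4.27% called lower. DESeq2 called 6, adding *Cd68* and *Csf1r*. The WT mice at day 15 lay above both WT mice at day 0 for 7 of the 10 genes (31% of all genes), and the median log2 change was 1.49 (0.00455 over all genes). No member was called without replicate 2 of WT day 0, and 1 without replicate 2 of WT day 15 (*C1qa*). In *Hsf1* null mice, no member passed the threshold between the days by edgeR, 3 had an unadjusted p under 0.05 (*Cd163* among them, and 32.6% of all genes), and DESeq2 called 3, with *Cd68* and *C1qc* higher and *Cd163* lower at day 15. *Cd163* passed the filter on low counts only through replicate 2 of *Hsf1* null day 0, so its p-value and its call in DESeq2 are not read as a change. Of all genes, 5.3% were called higher and 6.48% lower in that comparison, 4 of the 10 genes lay above without overlap (31% of all genes), and the median log2 change was 0.40 (0.0521 over all genes).

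Between genotypes in untreated mice, the edgeR test did not call even the deleted gene, *Hsf1* (2.96-fold higher in WT mice, without overlap, unadjusted p = 0.000378, adjusted p = 0.774 by edgeR). DESeq2 did call *Hsf1* there (log2 1.55, adjusted p = 0.037). At day 0, none of the 10 genes was called by edgeR or DESeq2, and 4 had an unadjusted p under 0.05: *Csf1*, *Cd68* and *C1qa*, higher in WT mice, and *Cd163*, lower in them and tested only through 1 untreated *Hsf1* null mouse. The edgeR test called 0% of the 14371 genes there, of which 904 (6.29%) had an unadjusted p under 0.05, and DESeq2 called 17. Values were nevertheless higher in both WT mice than in both *Hsf1* null mice for 6 of the 10 genes, against 18.4% of all genes, and lower in both for 1 (*Cd163*), with a median log2 fold change of 0.70 (0.0106 over all genes). Without replicate 1 of WT day 0, the log2 values of *Csf1*, *Csf1r*, *Cd68* and the C1q genes lay between 0.14 and 0.33. Those of *Lyz2* and *Cd14* were then -0.54 and -0.34. Whether the change over time differed with genotype was tested as an interaction, which no member passed (3, *Cd163* among them, and 8.62% of all genes had an unadjusted p under 0.05, and DESeq2 called none). Of all genes, 0.00696% passed it.

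**Figure D2:**
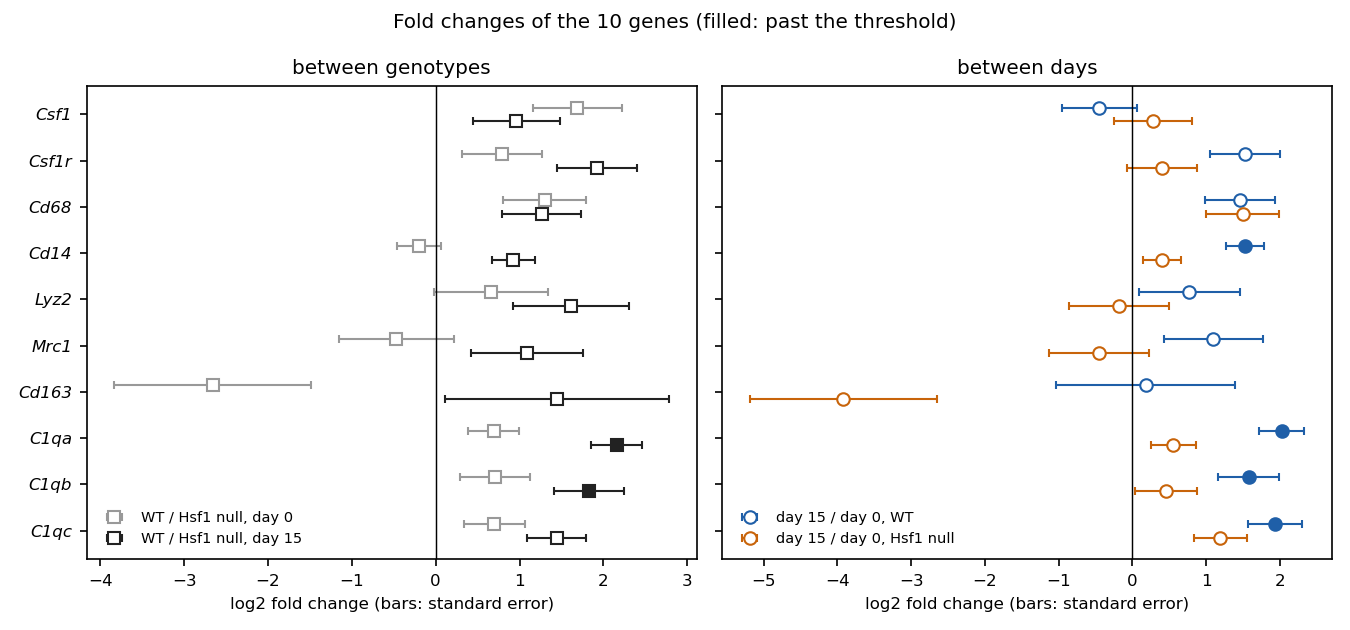
Log2 fold change of each gene from edgeR with its standard error, between genotypes (squares, left) and between days (circles, right); filled symbols passed the threshold. *C1qa* and *C1qb* pass between genotypes at day 15, *Cd14* and the 3 C1q genes pass between days in WT mice, and no gene passes at day 0 or between days in *Hsf1* null mice.

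*Csf1r* (chr18:61100598-61132149, plus strand, GRCm38 in GENCODE M21) encodes the receptor. In untreated mice, it was at 68.6 and 33.0 CPM (WT) and 29.3 and 30.5 CPM (*Hsf1* null), and in treated mice at 89.7 and 208.9 CPM (WT) and 26.4 and 52.3 CPM (*Hsf1* null). The WT mice at day 15 were the highest in the series, but they differed from each other by 2.33-fold, and neither genotype pair nor WT day pair overlapped. WT mice exceeded *Hsf1* null mice at day 15 by 3.79-fold (log2 1.92 ± 0.48 SE), short of the threshold (adjusted p = 0.0606 by edgeR). The adjusted p was 0.0345 without replicate 1 of WT day 15, 0.043 without replicate 2 of *Hsf1* null day 15, 0.0404 with all counts thinned to the smallest library and 0.000981 in DESeq2, and ran up to 0.31 over the other settings. From day 0 to day 15, *Csf1r* was 2.89-fold higher in WT mice (adjusted p = 0.0735 by edgeR) and 1.32-fold higher in *Hsf1* null mice (adjusted p = 0.598). Between days in WT mice it passed without replicate 1 of WT day 15 (log2 2.02, adjusted p = 0.0365) and in DESeq2 (adjusted p = 0.00832). The gene overlaps *Hmgxb3* on the opposite strand, and the strand setting used for counting is not given in the sources used here.

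*Csf1* (chr3:107741048-107760469, minus strand) encodes the growth factor. In untreated mice, it was at 112 and 25.4 CPM (WT) and 21.5 and 21.9 CPM (*Hsf1* null), and in treated mice at 49.6 and 52.9 CPM (WT) and 22.2 and 30.4 CPM (*Hsf1* null). Replicate 1 of WT day 0 stood far above every other mouse, and the WT mice were above the *Hsf1* null mice on both days. At day 15 the difference was 1.95-fold (log2 0.96 ± 0.52, adjusted p = 0.295), and at day 0 it was 3.23-fold (log2 1.69 ± 0.53, adjusted p = 0.775). The day 0 difference was called when replicate 2 of WT day 0 was left out (log2 2.35, adjusted p = 0.04) and fell to log2 0.23 without replicate 1. Likewise, the change between days in WT mice was -0.45 on the log2 scale with both mice and 1.01 without replicate 1 of WT day 0, and neither passed the threshold.

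The list of partners of the receptor held 12 genes, all tested. *Tyrobp*, which encodes the signaling adaptor DAP12 of myeloid cells, passed the threshold between genotypes at day 15, at 94.5 and 240.3 CPM in WT mice against 31.3 and 50.2 CPM in *Hsf1* null mice (log2 2.04 ± 0.47, adjusted p = 0.0476). The other 11 partners did not pass, and the list's median log2 fold change was 0.54. Among them *Il34*, the alternative ligand, was nearly level across the series, between 20.1 and 37.1 CPM (log2 -0.08 between genotypes at day 15, adjusted p = 0.901). Between days in WT mice, *Tyrobp* and *Inpp5d*, which encodes the lipid phosphatase SHIP1, rose and *Cbl*, which encodes a ubiquitin ligase that acts on activated receptors, fell by 1.24 on the log2 scale. None of the 12 passed between days in *Hsf1* null mice, although 8 had an unadjusted p under 0.05, against 32.6% of all genes.

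Of the other colony stimulating factors and their receptor chains, 4 of 5 were tested. *Csf3*, which encodes the neutrophil growth factor G-CSF, passed the filter on low counts only through the treated WT mice, so that its tests against the other groups say nothing further and are not given. Treated mice were at 6.35 and 14.8 CPM (WT) and at 0 and 0.134 CPM (*Hsf1* null), and it had no count in any mouse at day 0. *Csf2*, the gene of GM-CSF, was too low to be tested, and *Csf2ra*, *Csf2rb* and *Csf3r* did not pass in any comparison.

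The C1q genes lie together on the minus strand of chromosome 4, *C1qb* (chr4:136880129-136886187), *C1qc* (chr4:136889804-136893065) and *C1qa* (chr4:136895917-136898803), within 18675 bp. Sites of HSF1 are built from several GAA units, and a single pair is only part of such a site. The 250 bases before the RefSeq start of members (GRCm38.p6) were searched on both strands for GAANNTTC and TTCNNGAA. These are the head-to-head and tail-to-tail pairs of that unit. They were also searched for GAGGAA, the box of the macrophage factor PU.1. This search covered 7 of the 10 genes and left out *C1qa*, *Csf1r* and *Cd14*. A pair of GAA units was found in the C1q genes *C1qb* and *C1qc* and in none of the other 5. The whole upstream window of *C1qb* (chr4:136886201-136886450, minus strand) is shown with GAAACTTC, 56 bases before the start, and GAGGAA, 30 bases before it, in capitals. For *C1qc* the 30 bases around its match (chr4:136892977-136893006, minus strand) are shown, with TTCTGGAA, 81 bases before the RefSeq start, in capitals. The 2 annotations differ here: the GENCODE M21 model of *C1qc* begins farther upstream, and these bases lie within its first exon.
C1qb: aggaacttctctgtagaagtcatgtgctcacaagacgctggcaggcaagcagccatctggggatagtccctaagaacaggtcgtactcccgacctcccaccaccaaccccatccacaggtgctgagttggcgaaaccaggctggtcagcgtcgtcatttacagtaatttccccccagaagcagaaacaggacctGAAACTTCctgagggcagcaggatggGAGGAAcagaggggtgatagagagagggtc
C1qc: tcagggaaaatTTCTGGAAaggggatgtag

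Of 32851 RefSeq promoters, 6.69% held GAANNTTC, 7.17% held TTCNNGAA and 23.3% held GAGGAA. The match in a window is a description of its letters, and binding was not measured here. GAGGAA or its reverse, TTCCTC, was also found in *C1qc* (193 bases before the start), *Cd68* (225) and *Mrc1* (180, 167 and 35). *Csf1*, *Lyz2* and *Cd163* held none of the 3 motifs in that window.

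In untreated mice, *C1qa* was at 63.5 and 37.7 CPM (WT) and 30.3 and 33.4 CPM (*Hsf1* null), and in treated mice at 205.9 and 212 CPM (WT) and 37.1 and 56.2 CPM (*Hsf1* null). The treated WT mice were close to each other and above all 6 other mice, whereas the treated *Hsf1* null mice lay within the range of the 4 untreated mice. The difference between genotypes at day 15 was 4.47-fold (log2 2.16 ± 0.31 SE, adjusted p = 0.0137). It kept a log2 fold change of 1.88 to 2.49 over 16 alternative settings and lost its call in 5 of them. The adjusted p was 0.0524 without replicate 1 and 0.0518 without replicate 2 of *Hsf1* null day 0, 0.0677 without replicate 2 of WT day 15, 0.096 without replicate 1 of *Hsf1* null day 15 and 0.0692 with only the groups compared. In WT mice, *C1qa* rose 4.07-fold from day 0 to day 15 (log2 2.03 ± 0.31, adjusted p = 0.00882), a call lost without replicate 2 of WT day 0 (adjusted p = 0.0634). In *Hsf1* null mice the change was 1.47-fold (adjusted p = 0.234).

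In untreated mice, *C1qb* was at 105.7 and 65.9 CPM (WT) and 47.4 and 58.9 CPM (*Hsf1* null), and in treated mice at 257 and 258 CPM (WT) and 39.1 and 105.9 CPM (*Hsf1* null). The treated *Hsf1* null mice differed from each other by 2.71-fold and straddled the untreated mice. WT mice exceeded *Hsf1* null mice at day 15 by 3.55-fold (log2 1.83 ± 0.42, adjusted p = 0.0481). That call was lost in 9 of 16 settings, among them the omission of any mouse except replicate 2 of *Hsf1* null day 15 (adjusted p between 0.0504 and 0.191 without any of the other 7), the replicate block (0.0595) and the fit of only these groups (0.117). The log2 fold change fell to 1.27 without replicate 1 of *Hsf1* null day 15. Between days, *C1qb* rose 2.98-fold in WT mice (log2 1.58 ± 0.42, adjusted p = 0.0477), which was lost with the replicate block (0.0658) or without any 1 of the 4 WT mice or the untreated *Hsf1* null mice (0.0774 to 0.259). It was 1.37-fold higher at day 15 in *Hsf1* null mice (adjusted p = 0.481), a direction that turned without replicate 2 of *Hsf1* null day 15 (log2 -0.43).

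In untreated mice, *C1qc* was at 82.5 and 50.4 CPM (WT) and 38.7 and 44.2 CPM (*Hsf1* null), and in treated mice at 220 and 293 CPM (WT) and 63.9 and 125 CPM (*Hsf1* null). It rose 3.82-fold between days in WT mice (log2 1.93 ± 0.36, adjusted p = 0.0165). Both genotypes were higher at day 15 without overlap, but in *Hsf1* null mice the 2.28-fold difference missed the threshold (adjusted p = 0.0544). There it passed without replicate 1 of *Hsf1* null day 15 (log2 1.60, adjusted p = 0.0415) and in DESeq2 (0.0146). The call in WT mice was lost without replicate 2 of WT day 0 (adjusted p = 0.125) or replicate 2 of WT day 15 (0.0857). Between genotypes at day 15 *C1qc* was 2.72-fold higher in WT mice (log2 1.44 ± 0.35, adjusted p = 0.0574), and it passed without replicate 2 of *Hsf1* null day 15 (log2 2.0, adjusted p = 0.0216) and in DESeq2 (0.00285).

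Within a mouse, the chains kept similar ratios of counts at day 0. *C1qa* was 0.57 to 0.64 of *C1qb*, and *C1qc* was 0.75 to 0.82 of it, in all 4 untreated mice. At day 15 the ratio of *C1qa* to *C1qb* was 0.80 and 0.82 in WT mice and 0.95 and 0.53 in *Hsf1* null mice. The ratio of *C1qc* to *C1qb* was 0.85 and 1.14 in WT mice and 1.64 and 1.18 in *Hsf1* null mice, above the untreated mice in every treated mouse. These ratios were not tested.

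The list of partners and regulators of C1q held 6 genes. At day 15, 4 of them passed the threshold as higher in WT than in *Hsf1* null mice, against 1.25% of all genes. They were *C1ra* and *C1s1*, the proteases that complete the C1 complex (log2 1.74 and 1.93), *Serping1*, the C1 inhibitor (2.17), and *C4b*, the fourth complement component (2.44). *C4b* was at 666 and 455 CPM in WT mice at day 15 against 59.9 and 147 CPM in *Hsf1* null mice. *C3*, on which the complement pathways converge, was at 1314 and 1441 CPM in WT mice at day 15 against 163 and 463 CPM, which did not pass (log2 2.14, adjusted p = 0.072). The list's median log2 fold change was 2.04. None of the list genes passed between genotypes at day 15 when only those groups were fitted. Between days, *C4b*, *C2* and *C3* rose in WT mice and *C2* alone of the 6 passed in *Hsf1* null mice (log2 2.37). Treated mice had *C2* at 32.0 and 51.4 CPM (WT) and 44.5 and 29.7 CPM (*Hsf1* null), so that the genotypes overlapped.

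*Cd14* (chr18:36725067-36726798, minus strand) was level in untreated mice, at 105.9 and 87.7 CPM in WT mice and 122 and 100.3 CPM in *Hsf1* null mice. Treated mice were at 278 and 281 CPM (WT) and at 119 and 175 CPM (*Hsf1* null). Both treated WT mice were above all untreated mice, as was 1 of the 2 treated *Hsf1* null mice. *Cd14* rose 2.88-fold between days in WT mice (log2 1.53 ± 0.26, adjusted p = 0.0122), a call lost without replicate 2 of WT day 0 (adjusted p = 0.115) or replicate 2 of WT day 15 (0.0686), and was 1.32-fold higher at day 15 in *Hsf1* null mice (adjusted p = 0.305). WT mice exceeded *Hsf1* null mice at day 15 by 1.90-fold (log2 0.92 ± 0.26, adjusted p = 0.0749), which passed without replicate 2 of *Hsf1* null day 15 (log2 1.23, adjusted p = 0.0421). The difference between the genotypes in the change over time was 1.12 on the log2 scale (unadjusted p = 0.0116, adjusted p = 0.454).

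All 8 genes listed as partners of CD14 in LPS sensing were tested. *Lbp*, which encodes the LPS-binding protein that loads CD14, passed between genotypes at day 15, at 54.4 and 46.6 CPM in WT mice against 8.38 and 20.5 CPM in *Hsf1* null mice (log2 1.80, adjusted p = 0.0446). *Lbp* and *Myd88*, an adaptor of the receptors, rose between days in WT mice by 2.79 and 1.37 on the log2 scale. *Tlr4* itself was at 8.70 and 9.93 CPM (WT) and 5.58 and 7.22 CPM (*Hsf1* null) in treated mice, below all untreated mice. It fell by 1.89 between days on the log2 scale in *Hsf1* null mice (adjusted p = 0.0477), whereas the value in WT mice was -0.997 (adjusted p = 0.247). *Tlr4* was uneven in untreated *Hsf1* null mice, at 10.7 and 38.5 CPM. The list's median log2 fold change between genotypes at day 15 was 0.31.

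In untreated mice, *Cd68* (chr11:69664213-69666153, minus strand) was at 36.7 and 13.1 CPM (WT) and 10.8 and 10.1 CPM (*Hsf1* null), and in treated mice at 62.5 and 79.4 CPM (WT) and 18.6 and 40.4 CPM (*Hsf1* null). It was the member with the most even change over time in the 2 genotypes, 2.75-fold in WT mice (log2 1.46 ± 0.47, adjusted p = 0.0816) and 2.82-fold in *Hsf1* null mice (log2 1.50 ± 0.49, adjusted p = 0.0699). The interaction was -0.04 ± 0.66 on the log2 scale with all mice and ran from -0.54 to 0.94 with 1 mouse left out in turn. The change passed in *Hsf1* null mice without either WT mouse at day 0 (adjusted p = 0.0461 and 0.0463), with only the 2 groups (0.0479) and in DESeq2 (0.0174), and in WT mice without replicate 1 of WT day 0 (log2 2.43, 0.0445) and in DESeq2 (0.0157). WT mice exceeded *Hsf1* null mice by 2.46-fold at day 0 (adjusted p = 0.775) and 2.4-fold at day 15 (adjusted p = 0.147). With 1 mouse left out in turn, the log2 value ran from 0.33 to 1.79 at day 0 and from 0.80 to 1.93 at day 15.

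*Lyz2* (chr10:117277331-117282321, minus strand) encodes the lysozyme of myeloid cells and had the highest level per exon length of the 10 genes in every mouse. In untreated mice, it was at 642 and 179 CPM (WT) and 222 and 301 CPM (*Hsf1* null), and in treated mice at 403 and 1006 CPM (WT) and 101 and 359 CPM (*Hsf1* null). Treated WT mice were above treated *Hsf1* null mice by 3.06-fold (log2 1.62 ± 0.69, adjusted p = 0.198), while all other comparisons overlapped. That log2 value was 0.81 without replicate 2 of WT day 15 and 2.81 without replicate 2 of *Hsf1* null day 15. Mice of 1 group differed by up to 3.58-fold. *Lyz2* shares 195 of its 1267 sequences of 50 bases (15.4%) with the neighboring gene *Lyz1*, the lysozyme of Paneth cells, so that some reads could be counted on either. *Lyz1* was at 0.0221 to 0.182 of the *Lyz2* count in each mouse.

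In untreated mice, *Mrc1* (chr2:14229392-14332057, plus strand) was at 27.4 and 15.1 CPM (WT) and 17.0 and 44.9 CPM (*Hsf1* null), and in treated mice at 55.4 and 37.9 CPM (WT) and 6.98 and 36.8 CPM (*Hsf1* null). Replicate 1 of *Hsf1* null day 15 was the lowest mouse of the series, and replicate 2 of that group was close to the lower treated WT mouse. The 2.12-fold difference between genotypes at day 15 did not pass (log2 1.09 ± 0.67, adjusted p = 0.356). Without replicate 2 of *Hsf1* null day 15 it passed (log2 2.74, adjusted p = 0.0481), and without replicate 1 it was 0.34 on the log2 scale.

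*Cd163* (chr6:124304656-124330527, plus strand) was near the limit of detection. Untreated mice had 6 and 1 counts (WT) and 14 and 18 counts (*Hsf1* null), and treated mice 10 and 3 counts (WT) and 0 and 3 counts (*Hsf1* null). Its mean normalized count was 8.62, and 3.56 without replicate 2 of *Hsf1* null day 0, so that it passed the filter on low counts through that mouse. The 0 counts in replicate 1 of *Hsf1* null day 15 allow a level of up to 0.465 CPM (3 counts, counting error only). With the counts of each group summed, 13 in treated WT mice against 3 in treated *Hsf1* null mice, the ratio of CPM was 2.88 with an exact 95% counting interval of 0.791 to 15.7, which does not include the spread between mice.

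**Figure D3:**
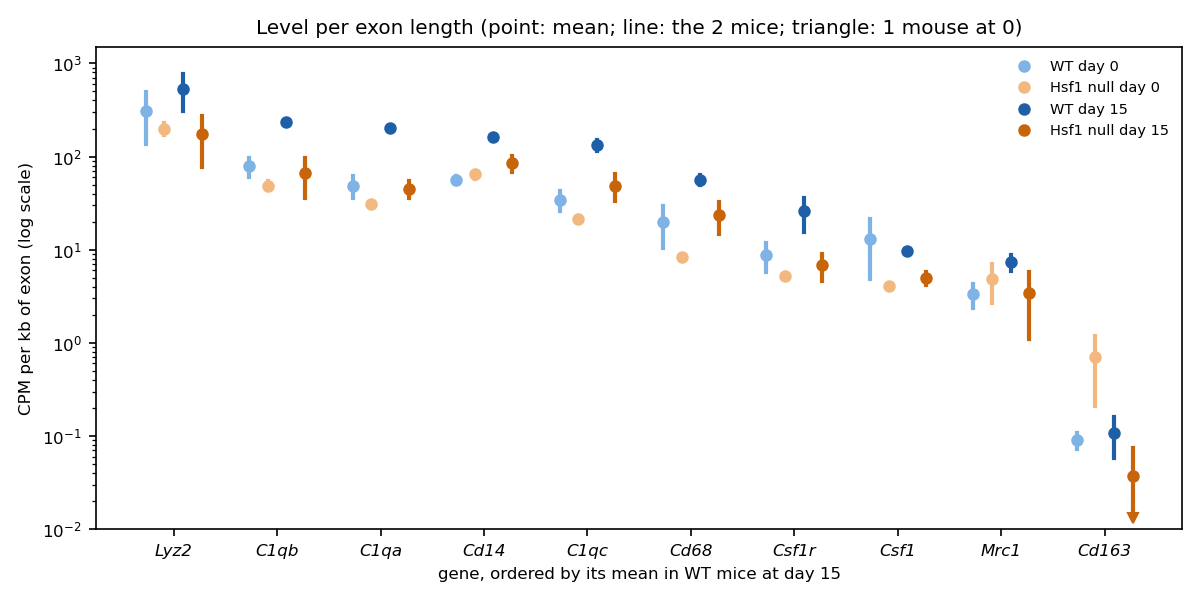
Level of each gene in CPM per kb of exon (log axis), by group, with the mean as a point and the range of the 2 mice as a line. *Lyz2* is the highest and *Cd163* the lowest in every group, and *Csf1r*, *Csf1* and *Mrc1* sit between the C1q genes and *Cd163*.

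Levels of the genes were compared per kb of their exons (GENCODE M21, all transcripts joined). In WT mice at day 15, the mean level per length was 536 CPM per kb for *Lyz2*, 237 for *C1qb*, 201 for *C1qa*, 161 for *Cd14*, 133 for *C1qc*, 56.5 for *Cd68*, 25.9 for *Csf1r*, 9.70 for *Csf1*, 7.32 for *Mrc1* and 0.109 for *Cd163*. No neighbors in that order overlapped between the 2 mice, though by the longest transcript *C1qc* (213 CPM per kb) came before *C1qa* and *Cd14*. In *Hsf1* null mice at day 15 the order began with *Lyz2* (76.5 to 273 CPM per kb), *Cd14* (69.0 to 101) and *C1qb* (35.9 to 97.4), whose ranges overlapped, as did those of *Csf1r* (4.57 to 9.06), *Csf1* (4.2 to 5.75) and *Mrc1* (1.10 to 5.77). At day 0 the means of *Cd14* were 55.9 CPM per kb in WT mice and 64.2 in *Hsf1* null mice, where it was second to *Lyz2* and above *C1qb* (48.9) without overlap. The receptor gene was above its ligand gene per length in both treated WT mice (15.5 and 36.2 against 9.39 and 10.0), but in untreated WT mice the means were reversed, with 8.80 for *Csf1r* and 13 for *Csf1*, and their ranges overlapped.

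Across the 8 mice, the 5 genes outside the 10 whose log2 level (CPM + 0.5) was most like that of *Csf1r* were *Csf2rb* (Pearson's r = 0.995), *Tyrobp* (0.992), *Dram1* (0.989), *Ifitm3* (0.980) and *Itga4* (0.978). They encode the common chain of the receptors for GM-CSF and related cytokines, the adaptor DAP12, a lysosomal membrane protein, an interferon-induced membrane protein and the alpha-4 integrin of leukocytes. Without 1 mouse at a time, 2 to 4 of the 5 remained among the top 5. Among the members, r with *Csf1r* was 0.936 for *C1qb*, 0.930 for *C1qa*, 0.918 for *C1qc*, 0.908 for *Cd68*, 0.882 for *Lyz2*, 0.809 for *Cd14*, 0.698 for *Csf1*, 0.591 for *Mrc1* and -0.225 for *Cd163*. These are descriptions over 8 mice that share groups, libraries and depth. *Tyrobp* ranged from 27.7 CPM in an untreated *Hsf1* null mouse to 240.3 CPM in replicate 2 of WT day 15, and its order among the 3 mice lowest in *Csf1r* was the reverse of that of *Csf1r*.

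Other macrophage markers gave a mixed picture. Of 18 listed genes, none passed as higher in WT mice at day 15 and 1 as lower, although 16 had a log2 fold change above 0, 9 had an unadjusted p under 0.05 (23.2% of all genes) and the median was 1.27. The defining marker *Adgre1*, which encodes a surface receptor of mature mouse macrophages, was at 16.5 and 9.53 CPM (WT) and 4.68 and 18 CPM (*Hsf1* null) in untreated mice, at 7.31 and 16.9 CPM (WT) and 3.26 and 6.69 CPM (*Hsf1* null) in treated mice, and did not pass in any comparison. *Itgam*, which encodes CD11b of myeloid cells, was at 16.6 and 50.3 CPM (WT) and 4.03 and 8.69 CPM (*Hsf1* null) in treated mice (log2 2.38, adjusted p = 0.0646). Between days in WT mice 3 passed as higher (*Aif1*, *Fcer1g* and *Laptm5*) and 1 as lower, and *Laptm5* passed in *Hsf1* null mice too (log2 1.42, adjusted p = 0.0463).

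Genes listed for tissue-resident macrophages went both ways. Of the 11 tested, 8 had a log2 fold change above 0 between genotypes at day 15, and the unadjusted p was under 0.05 for 6 (23.2% of all genes). *Cbr2* alone passed, as lower in WT mice (log2 -1.60), at 82.0 and 43.7 CPM against 191.1 and 191 CPM in *Hsf1* null mice. Between days, *Gas6* fell in WT mice by 1.72 on the log2 scale, and in *Hsf1* null mice *Cbr2* rose by 2.25 and *Lyve1*, a receptor for hyaluronan that lymphatic vessels also express, fell by 2.77. *Cbr2* and *Gas6* are also expressed by cells other than macrophages. The median log2 fold change of the list between genotypes at day 15 was 0.80.

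Among 11 tested genes of monocytes and inflammatory macrophages, 4 passed as higher in WT mice at day 15 and none as lower (1.25% and 1.91% of all genes). They were *Ly6c2*, a surface antigen of inflammatory monocytes, *Chil3*, the cytokine gene *Il1b* and *Nos2*, which encodes inducible nitric oxide synthase. Of the 11 genes, *Chil3* and *Arg1* passed the filter on low counts only through the treated WT mice, so that the call of *Chil3* is not read as a change. *Nos2* was at 190 and 359 CPM in WT mice against 24.0 and 47.9 CPM in *Hsf1* null mice (log2 2.93, adjusted p = 0.0198). *Il1b* was at 11.6 and 72.6 CPM in WT mice against 1.86 and 4.68 CPM, so that the treated WT mice were far apart. *Ly6c2* was already at 27.8 and 27.4 CPM in untreated WT mice against 6.24 and 5.39 CPM in untreated *Hsf1* null mice, and it lies 1.37 Mb from *Hsf1* on chromosome 15. Between days, *Ly6c2*, *Il1b*, *Nos2* and *Tnf* rose in WT mice, and *Nos2* and *Tnf* rose and *Plac8* fell in *Hsf1* null mice.

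**Figure D4:**
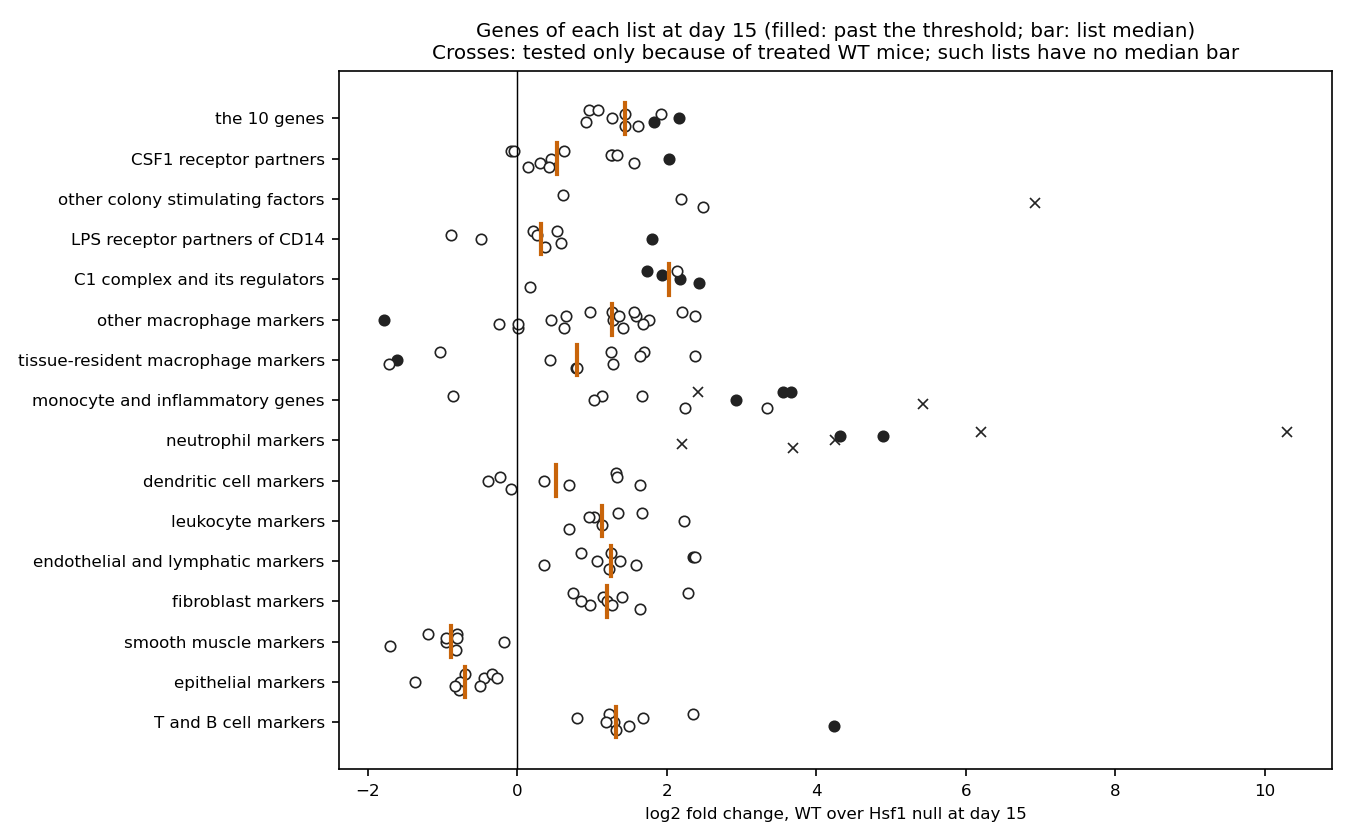
Log2 fold change of WT over *Hsf1* null mice at day 15 for each tested gene of the 10 members and the 15 lists (points, filled where the threshold was passed), with the list median as a bar. Crosses are genes that passed the filter on low counts only through treated WT mice, and the 3 lists that hold them have no bar. The medians of the members (1.45) and the C1 complex (2.04) lie to the right of 0, and those of smooth muscle (-0.88) and epithelium (-0.69) to the left.

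Markers of other cell types moved with the groups as well. Neutrophil markers, of which 8 of 11 were in the counts, summed to 1.72 to 3.63 CPM in untreated mice, to 123 and 495 CPM in treated WT mice and to 6.36 and 15.4 CPM in treated *Hsf1* null mice. *S100a8* was at 23.1 and 72.0 CPM in treated WT mice and at 0 and 1.20 CPM in treated *Hsf1* null mice. Of the 7 tested markers, 5 passed the filter on low counts only through the treated WT mice, so no count of calls is given for them. Neutrophils can express *Cd14*, *Lyz2*, *Itgam*, *Il1b*, *Tyrobp* and *Fcer1g*, and the part of these cells in the members' values was not tested.

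Fibroblast markers (9 genes) summed to 2460 and 2499 CPM in treated WT mice and 479.9 and 1488 CPM in treated *Hsf1* null mice, with all 9 log2 fold changes above 0 (median 1.21) and none past the threshold. At day 0 the sum was 2662 and 961 CPM in WT mice and 814 and 1176 CPM in *Hsf1* null mice, and replicate 1 of WT day 0 thus had the highest fibroblast sum as well as the highest *Csf1*. The 9 endothelial and lymphatic markers had a median of 1.26 between genotypes at day 15, and *Cdh5*, which encodes VE-cadherin, passed (log2 2.36). Smooth muscle markers (8 genes) had a median of -0.88, against 0.035 over all genes, and no log2 fold change above 0. Of these 8 markers, 6 had an unadjusted p under 0.05, against 23.2% of all genes. Epithelial markers (9 genes) had a median of -0.69 and no log2 fold change above 0. Of these 9, 1 had an unadjusted p under 0.05, against the same 23.2%. No marker of either list passed the threshold. Between days in WT mice, 6 of the 8 smooth muscle markers fell, and in *Hsf1* null mice 1 did. In *Hsf1* null mice *Lyve1*, *Dcn* of fibroblasts and *Car1* of the epithelium also fell. The part of these cell types in the members' values was not tested.

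Pan-leukocyte markers did not pass between genotypes at day 15 (0 of 7 by edgeR, median 1.14). Of these 7, 4 had an unadjusted p under 0.05, against 23.2% of all genes. *Rac2* and *Vav1* rose between days in WT mice. Of 8 tested dendritic cell markers none passed between genotypes (median 0.52). For 2 of the 8, the unadjusted p was under 0.05 (23.2% of all genes). *Ccr7* rose between days in WT mice. Of 9 markers of T and B cells, *Jchain*, the joining chain of antibodies, passed between genotypes at day 15 (log2 4.24, list median 1.32). It was at 2747 and 2615 CPM in treated WT mice and 46.8 and 237 CPM in treated *Hsf1* null mice. *Cd3e*, a chain of the T cell receptor complex, rose between days in both genotypes, and *Jchain* fell in *Hsf1* null mice. None of the genes in the 15 lists passed between genotypes at day 0 by edgeR, and DESeq2 called 1. Over all lists, 20 genes passed between genotypes at day 15, of which 5 had passed the filter on low counts only through the treated WT mice. The count was 0 without either untreated *Hsf1* null mouse or replicate 2 of WT day 15, 1 without replicate 1 of *Hsf1* null day 15 and 34 without replicate 2 of that group. Between days 35 genes passed in WT mice (6 of them tested only through the treated WT mice), 7 without replicate 2 of WT day 0 or of WT day 15, and 14 passed in *Hsf1* null mice, 0 without replicate 2 of *Hsf1* null day 0, 7 without replicate 1 and 9 without replicate 2 of *Hsf1* null day 15.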

How the data were processed

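Distal colon RNA from 8 mice was grouped by the genotype and day in the sample labels. Per the study's methods and labels, reads were aligned with STAR to mm10, and the authors deposited raw counts per gene symbol, without normalization. The counting program, its strand setting and the gene annotation are not given in the sources used here. A second deposited table, a score per gene and sample, holds the counts divided by the size factors of DESeq2, and was used only to check the size factors. The deposited genes all have at least 6 counts in 1 or more samples.

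The count model was edgeR 4.0.16 under R 4.3.3 (TMM, 1 model of the 4 groups, quasi-likelihood test, prior degrees of freedom 5.97). Tests covered the 14371 genes whose normalized counts averaged above 5, with Benjamini-Hochberg adjustment over all of these in each comparison. The scripts were tested on simulated data. Alternatives were DESeq2 1.42.0, its size factors in edgeR, no filter, filterByExpr, a replicate block, counts thinned to the smallest library, no fold threshold, only the groups compared, each mouse left out in turn, and the longest transcript. With 2 mice a group, p-values rest on a spread shared across genes and groups, and single values allow no test. Total counts of 2553348 to 12440257 per library set the precision of each level, and counting intervals cover counting error only. Gene models are from GENCODE M21 on GRCm38 and promoters from RefSeq on GRCm38.p6.

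The members and the lists were chosen with earlier results of these data known. Genes named are the members, *Hsf1*, *Lyz1* as the close copy of *Lyz2*, list genes (those called first, and defining markers) and the 5 genes most like *Csf1r*. The values of 1 list gene are not reported here, though it is in the counts over its list.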

Additional observations from a re-analysis of the deposited data

Results flagged for a closer look

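None of the 10 members moved in opposite directions in every mouse of 2 groups, and groups of 2 mice do not allow a check for outlying mice. Among the list genes, 7 did, and none of their interactions passed the edgeR test. Between genotypes, every WT mouse was on opposite sides of the *Hsf1* null mice at day 0 and at day 15 for 5 genes, given here as the log2 difference of day 15 minus day 0. It was -1.89 for *Cbr2* (adjusted p = 0.337), a reductase gene on the list for resident macrophages. For *Plac8*, listed with monocytes but also expressed by epithelium, it was 1.81 (adjusted p = 0.356). The smooth muscle actins *Acta2* and *Actg2* had -1.22 (adjusted p = 0.532) and -2.18 (adjusted p = 0.392), and *Cdh1*, E-cadherin of the epithelium, had -0.37 (adjusted p = 0.81). Between days, every mouse moved in opposite directions in the genotypes for *Cdh5*, with a log2 difference of WT minus *Hsf1* null of 1.97 (adjusted p = 0.454), and for *Jchain*, with 3.39 (adjusted p = 0.412).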

How the results depend on the processing

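In 783 of 854 combinations of a fold change and an alternative, the direction and the side of the threshold did not change, in 30 a call was lost, in 22 one was gained and in 19 the direction turned. Without the other groups in the fit, fewer residual degrees of freedom are left. DESeq2 gave more calls than edgeR, and the cause was not tested.

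Members called at day 15 between genotypes (2) were 4 in DESeq2, 0 with only the groups compared, and 0 to 6 without 1 mouse. At day 0 (0) they were 0 in DESeq2. Between days in WT mice (4) they were 6 in DESeq2, and in *Hsf1* null mice (0) 3 in DESeq2 and 1 with only the groups compared. These counts also moved when 1 mouse was left out. Of all genes, 455 were called at day 15 (DESeq2 1167, only the groups compared 6, without 1 mouse 12 to 873), 0 at day 0 (17, 2 and 0 to 17), 1112 between days in WT mice (DESeq2 1726, without 1 mouse 92 to 1336), 1692 in *Hsf1* null mice (0 to 1891 without 1 mouse) and 1 for the interaction (DESeq2 120, 2 with no filter and 2 with thinned counts, 0 to 50 without 1 mouse). List genes called were 20 at day 15 (DESeq2 45, only the groups compared 0, without 1 mouse 0 to 34), 0 at day 0 (DESeq2 1, 0 to 2), 35 in WT mice (DESeq2 54, 7 to 45), 14 in *Hsf1* null mice (DESeq2 28, only the groups compared 22, 0 to 19) and 0 for the interaction (DESeq2 6, 0 to 1). Of the 5 genes most like *Csf1r*, 3 were kept with no filter, 2 with thinned counts and 2 to 4 without 1 mouse. By the longest transcript, levels in WT mice at day 15 moved from 9.70 to 12.3 CPM per kb for *Csf1*, from 161 to 170.3 for *Cd14* and from 133 to 213 for *C1qc*.

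With the replicate block, 1 member was called at day 15 (*C1qa*, not *C1qb*) and 2 genes for the interaction, *C1qb* was lost between days in WT mice, and no other member's call changed. Same-numbered mice are different animals, and with 2 pairs their deviations correlated at 0.15 and 0.023 between genotypes at day 15 and day 0 and at -0.3 and 0.17 between days in WT and *Hsf1* null mice.

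Directions that turned were those of uncalled changes, given here as the range of log2 values without 1 mouse. Between genotypes at day 0 it was -0.54 to 1.28 for *Lyz2* and -1.04 to 0.36 for *Mrc1*. Between days in WT mice it was -1.11 to 1.01 for *Csf1*, -0.0303 to 1.97 for *Lyz2* and -0.72 to 0.69 for *Cd163*. Between days in *Hsf1* null mice it was -0.18 to 0.81 for *Csf1r*, -1.37 to 0.47 for *Lyz2*, -2.10 to 0.37 for *Mrc1*, -0.43 to 1.01 for *C1qb* and -0.52 to 0.0502 for *Hsf1*. In the interaction it was -1.40 to 0.74 for *Csf1* and -0.54 to 0.94 for *Cd68*, which was also at 0.0052 in DESeq2 and at 0.0629 with thinned counts.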
